A study of Homo sapiens with 9 samples.

Results

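The genes described here are those that make, break down or bind glycogen, or regulate the enzymes that do. They were taken from a fixed list of 36 symbols, matched to the Ensembl identifiers of the gene tables, and all 36 were found among the 58395 genes listed. STBD1 and its read-through neighbour FAM47E-STBD1 share exons and were summed into 1 row, which leaves 35 rows. The libraries came from HCT116, an established human colon carcinoma line. All 9 carried a short hairpin RNA against STBD1 (shSTBD1), so no library here has the hairpin-free level of the gene. On that background 3 stable lines with 3 replicate libraries each were compared. The first carried the empty vector plvx neo, the second STBD1 WT in a form the hairpin does not recognise, and the third STBD1 W203C, in which the tryptophan that the name gives is a cysteine. The constructs were delivered by lentivirus and the cells selected with drugs. The sources used here name no clones, and they do not say whether the replicates of a group came from separate infections, so the p-values measure the spread between cultures that may be of 1 line. The comparisons ask how the RNA of glycogen enzymes differed when STBD1 was put back, and when the form with the altered motif was put back instead.

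The sample labels and the other records of this series disagree on which construct is which. STBD1 WT and STBD1 W203C are exchanged, relative to the labels, in the names of the deposited tables and in the listing of levels by construct that accompanies the study. Groups are named here by the labels. If the other records are right, every value given for the libraries labelled STBD1 WT belongs to STBD1 W203C, every value given for those labelled STBD1 W203C belongs to STBD1 WT, and each difference between the constructs turns its sign.

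Glycogen is a branched store of glucose. Glucose 6-phosphate is turned to glucose 1-phosphate by phosphoglucomutase and to UDP-glucose by UGP2, a chain is primed on glycogenin, lengthened by glycogen synthase and branched by GBE1. In the cytosol glycogen phosphorylase releases glucose 1-phosphate. In the lysosome acid alpha-glucosidase, GAA, releases free glucose. STBD1 binds glycogen through a starch-binding domain and ATG8-family proteins such as GABARAPL1 through a short motif, and is described as a receptor that brings glycogen to the lysosome (glycophagy). Phosphorylase kinase switches phosphorylase on, GSK3 holds glycogen synthase in its less active phosphorylated form, and protein phosphatase 1 (PP1), brought to the particle by glycogen-targeting subunits, reverses both. These enzymes are set largely by phosphorylation, which RNA levels do not show.

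Expected counts are estimates in which a read that matches several transcripts is divided between them. Their totals were 16.9 to 23.3 M per library and the 10 most abundant genes took 5.87% to 6.89% of them. Replicates of a group differed by more than sampling noise, with a chi-square per gene of 2.12 to 3.87 where noise alone gives about 1. Levels of different genes are given as TPM, which is scaled by transcript length and library size. Of 10 markers of colon epithelium, EPCAM, CDH1, KRT8, KRT18, KRT19 and CDX2 were above 1 TPM in every library, while CDX1 was listed at 0 and VIL1 reached at most 0.08 TPM. KRT20 measured 0.45 to 1.28 TPM and LGALS4 at most 1.42 TPM. The summed level of the list was 3799 to 3900 TPM in plvx neo. It was 3395 to 3528 TPM with STBD1 WT and 3178 to 3438 TPM with STBD1 W203C. Of the 10, 7 were tested in each comparison. In STBD1 WT vs plvx neo 2 were higher and 3 lower at an adjusted p below 0.05, which is what passing means below. That is 71.4%, where 27.8% of all genes passed. In STBD1 W203C vs STBD1 WT 1 was higher and 2 lower (42.9%, against 27.9% of all genes). In STBD1 W203C vs plvx neo 0 were higher and 2 lower (28.6%, against 5.7%). Of 4 markers of leukocytes, fibroblasts and endothelium only COL1A1 was above 1 TPM, and PTPRC, COL1A2 and PECAM1 reached at most 0.09 TPM. The 4 summed to 13.8 to 16.5 TPM in plvx neo, 16.4 to 21.6 TPM with STBD1 WT and 12.6 to 18.2 TPM in STBD1 W203C, and COL1A1 passed as higher in STBD1 WT vs plvx neo (log2 fold change 0.48) and lower in STBD1 W203C vs STBD1 WT (-0.49). The part of these markers in the results was not tested.

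The RNA of STBD1 is the check of the constructs. STBD1 (ENSG00000118804) lies at chr4:76306733-76311130 on the plus strand of GRCh38 and has 2 exons. The codon changed in STBD1 W203C is TGG at chr4:76309530-76309532, in exon 2 of 2 and in the coding sequence of 358 codons, where it opens the motif that binds ATG8 proteins. The reference sequence around it at chr4:76309506-76309556 is shown 5′ to 3′, with that codon in capitals, since it is the site at which the constructs differ by design.
STBD1, codon changed in W203C: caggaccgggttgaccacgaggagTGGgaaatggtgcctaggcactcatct
The codon used in the construct was not read from these files, which hold gene totals.

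Summed over STBD1 and FAM47E-STBD1, the level was 4.12, 4.80 and 5.62 TPM in the plvx neo libraries. It was 52.28, 54.38 and 57.04 TPM in the libraries labelled STBD1 WT, and 43.49, 46.77 and 47.93 TPM in those labelled STBD1 W203C. The groups did not overlap, and the libraries labelled STBD1 WT were the highest. The ratio of mean TPM to plvx neo was 11.3 for STBD1 WT and 9.50 for STBD1 W203C, and that of STBD1 W203C to STBD1 WT was 0.844. Each pair of groups gave a two-sided exact permutation p of 0.1, the smallest that 3 against 3 libraries allow. On expected counts the log2 fold change was 2.69 (SE 0.062) for STBD1 WT vs plvx neo, 2.41 (SE 0.070) for STBD1 W203C vs plvx neo and -0.28 (SE 0.049) for STBD1 W203C vs STBD1 WT. The quasi-likelihood F-test of edgeR, adjusted over all genes tested, gave 8.86e-17, 3.30e-17 and 0.000252. Libraries of bulk RNA cannot tell a change in the RNA of each cell from a change in the share of cells that hold it, for this gene and those that follow.

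In the construct libraries most of this RNA was assigned to FAM47E-STBD1 (ENSG00000272414, chr4:76251721-76311129). It held at most 42.9% of the summed TPM in plvx neo and 78.4% to 82.1% in the construct libraries. Its deposited length, an average over its transcripts weighted by their estimated abundance, was 2031 to 2828 bases in plvx neo and 1465 to 1475 bases in the construct libraries, while that of STBD1 was 3420 bases in all 9. TPM divides by an effective length that depends on this length, and counts do not. The TPM ratio and the fold change in counts are therefore not on the same scale. Tested as rows of their own, STBD1 gave a log2 fold change of 1.73 and FAM47E-STBD1 one of 4.06 for STBD1 WT vs plvx neo. Since reads of the shared exons can go to either gene, neither value alone is certain.

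**Figure D1:**
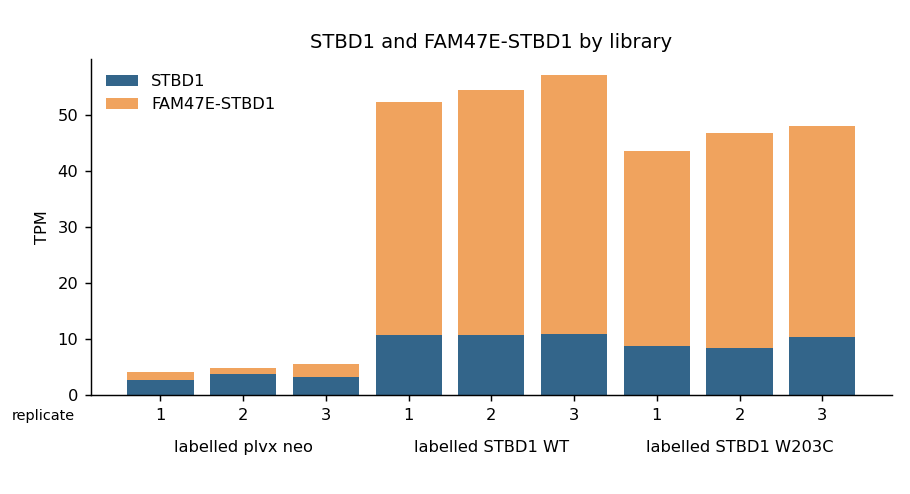
Bars give TPM in each of the 9 libraries, grouped by label, with STBD1 in blue and FAM47E-STBD1 stacked on it in orange. The 3 plvx neo libraries stand between 4.12 and 5.62 TPM in all, and the 6 construct libraries between 43.49 and 57.04 TPM.

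Of the 35 rows, 31 passed the filter on low counts in each comparison. The other 4 were GYG2 and NHLRC1, listed at 0 in every library, PPP1R3C with at most 0.02 TPM and FBP1 with at most 0.14 TPM. Besides STBD1, 30 genes were tested, 12 of them passed in at least 1 comparison and 18 passed in none. In STBD1 WT vs plvx neo 9 of 30 passed (30.0%), 6 higher and 3 lower, where 27.8% of all 15288 genes tested passed, 13.9% higher and 13.9% lower. In STBD1 W203C vs STBD1 WT 8 of 30 passed (26.7%), 3 higher and 5 lower, against 27.9% of 15051 genes, 14.5% higher and 13.4% lower. In STBD1 W203C vs plvx neo 2 of 30 passed (6.67%), 1 higher and 1 lower, against 5.7% of 15080 genes, 3.03% higher and 2.67% lower. In each comparison the share was near that of all genes. Without plvx neo replicate 3 the 6 higher became 3, and the 5 lower in STBD1 W203C vs STBD1 WT became 2 without STBD1 WT replicate 1 and 3 without STBD1 WT replicate 3 or STBD1 W203C replicate 1. In STBD1 W203C vs plvx neo 0 were higher without STBD1 W203C replicate 1, STBD1 W203C replicate 3, plvx neo replicate 2 or plvx neo replicate 3, 2 were higher without STBD1 W203C replicate 2, and 0 were lower without STBD1 W203C replicate 1 or plvx neo replicate 3. None of the 30 both passed and reached a 1.5-fold difference, a size reached with the test by 3.54%, 3.13% and 0.683% of all genes in the 3 comparisons.

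The differences were small in size as well. The median log2 fold change of the 30 genes was 0.08 in STBD1 WT vs plvx neo, where that of all genes was 0.0060. It was -0.04 in STBD1 W203C vs STBD1 WT, against -0.0078 for all genes, and 0.01 in STBD1 W203C vs plvx neo, against -0.0031. Their median absolute log2 fold change was 0.113, 0.0913 and 0.0848 in this order, and that of all genes was 0.148, 0.146 and 0.0910. Counts scaled to 1 M per library (CPM) did not overlap between the groups for 12, 14 and 7 of the 30 genes, and for 40.4%, 41.3% and 23.5% of all genes. The 3 comparisons share libraries, so their directions are not independent of each other.

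**Figure D2:**
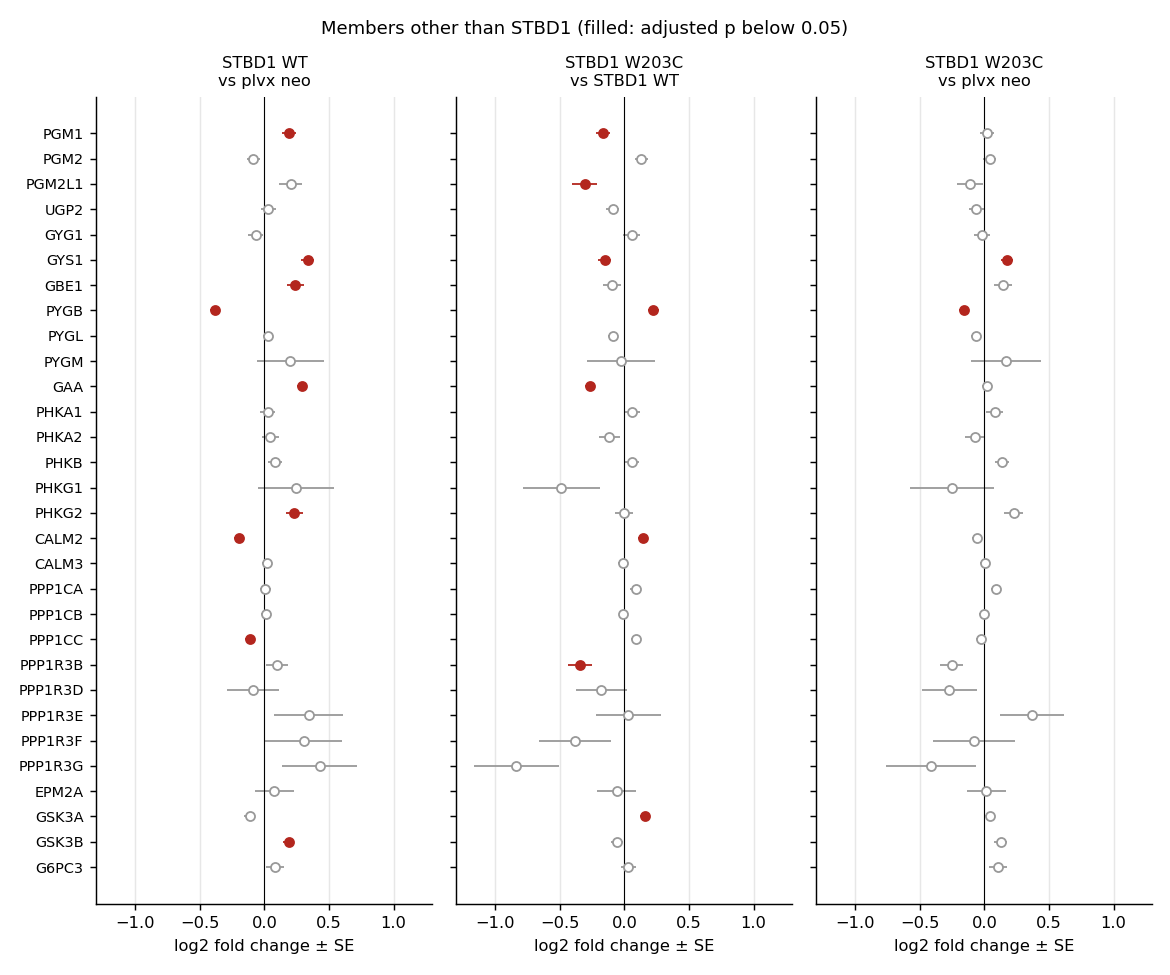
Points give the log2 fold change (first group minus second) and bars its SE for the 30 genes other than STBD1 in each of the 3 comparisons, with filled points for an adjusted p below 0.05. The filled point farthest from 0 is PYGB at -0.38 in STBD1 WT vs plvx neo, and the widest bars belong to genes with few counts, such as PPP1R3G and PHKG1.

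The levels of the list span a wide range. Per length, the most abundant RNAs were those of calmodulin, CALM2 with 278 to 344 TPM and CALM3 with 249 to 268 TPM, and of the PP1 catalytic subunits PPP1CA and PPP1CC, with 177 to 206 and 170 to 197 TPM. All these proteins serve many complexes besides those of glycogen. Among enzymes that act on glycogen itself PYGL was highest, with 107 to 113 TPM. Ranges were 50.4 to 68.6 TPM for GAA, 38.7 to 52.6 for PYGB, 27.3 to 39.1 for GYS1, 21.65 to 24.46 for the glycogenin GYG1, 12.5 to 18.0 for GBE1 and 0.67 to 1.17 for PYGM. The ranges of GAA and PYGB overlap, as those of PYGB and GYS1 do.

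**Figure D3:**
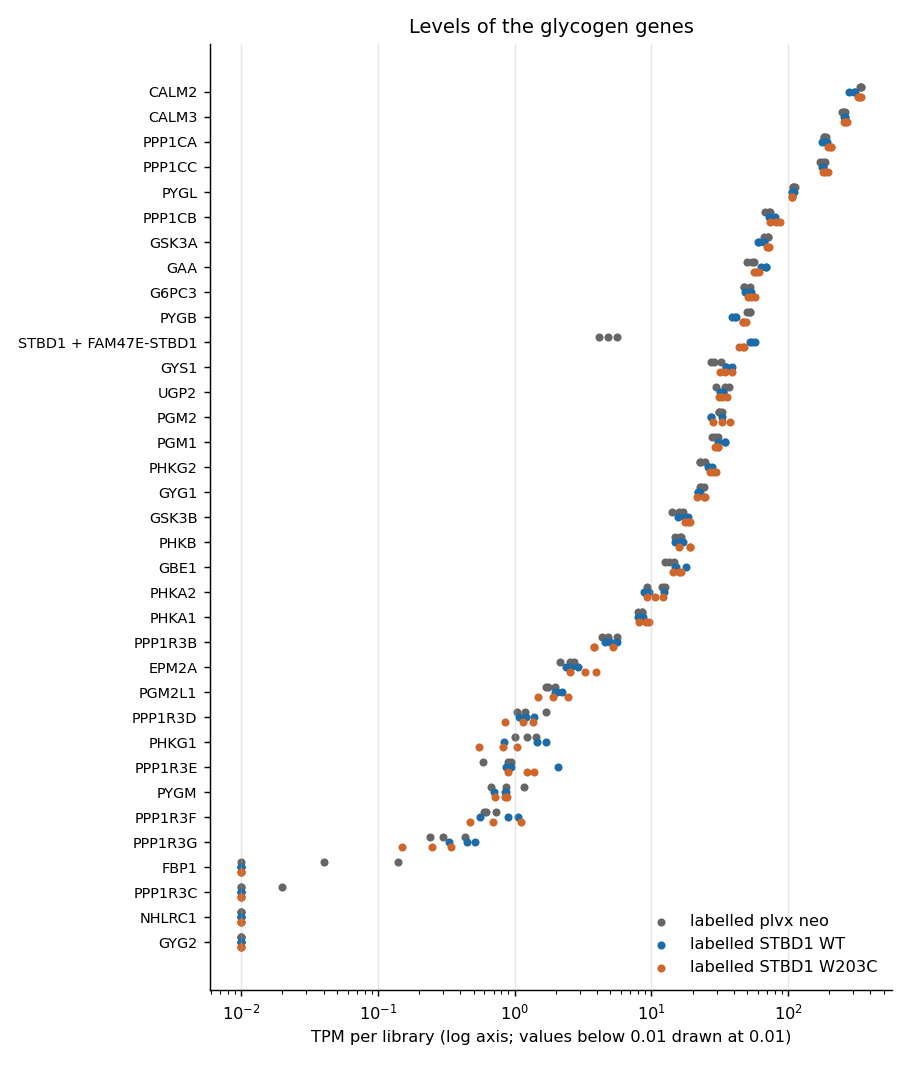
Points give TPM of each row in each library on a log axis, in grey for plvx neo, blue for STBD1 WT and orange for STBD1 W203C as labelled, ordered by mean level, with values below 0.01 drawn at 0.01. For the summed STBD1 row alone do the plvx neo points stand far to the left of the others.

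Among the genes of glycogen synthesis, 3 of 7 tested rose in STBD1 WT vs plvx neo and 0 fell, where 13.9% of all genes passed in each direction. In STBD1 W203C vs STBD1 WT 3 were lower and 0 higher, where 13.4% of all genes were lower and 14.5% higher. In STBD1 W203C vs plvx neo 1 was higher and 0 lower, where 3.03% of all genes were higher and 2.67% lower. With 7 genes these counts are a description. GYS1, the glycogen synthase of most tissues outside the liver (ENSG00000104812, chr19:48968130-48993310, minus strand, overlapping no other gene), measured 28.70, 32.48 and 27.28 TPM in plvx neo. It measured 39.07, 34.87 and 34.98 TPM in the libraries labelled STBD1 WT and 31.88, 34.48 and 38.99 TPM in those labelled STBD1 W203C. All STBD1 WT libraries were above all plvx neo libraries, while the STBD1 W203C libraries overlapped both groups in TPM. The log2 fold change of GYS1 was 0.33 (SE 0.047) for STBD1 WT vs plvx neo, with an adjusted p of 2.57e-05 in the edgeR F-test. This call held in every other fit and without any 1 library.

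The level of GYS1 in STBD1 W203C lay between the other groups in counts. Its log2 fold change was -0.15 (SE 0.047, edgeR adjusted p = 0.0185) against STBD1 WT and 0.18 (SE 0.048, edgeR adjusted p = 0.0285) against plvx neo. GYS1 CPM was 91.7 to 101.5 in STBD1 WT and 84.3 to 91.4 in STBD1 W203C, a gap narrower than the spread within either group. The difference between the constructs lost its call without STBD1 W203C replicate 1 (-0.14), STBD1 W203C replicate 2 (-0.13), STBD1 WT replicate 1 (-0.11) or STBD1 WT replicate 2 (-0.15), in DESeq2 (-0.15), with offsets for GC content and length (-0.07), and on the TPM scale, which here means limma on log2(TPM + 1) and log2(TPM + 0.1) (-0.05 in both). The difference from plvx neo lost its call without STBD1 W203C replicate 1 (0.19), STBD1 W203C replicate 3 (0.14), plvx neo replicate 2 (0.17) or plvx neo replicate 3 (0.16), and on the TPM scale (0.24 and 0.25).

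GBE1, which adds the branches (ENSG00000114480, chr3:81489703-81761645, minus strand), rose with GYS1 in STBD1 WT. Its level was 12.52, 14.64 and 13.42 TPM in plvx neo, 15.16, 14.83 and 17.97 TPM in the libraries labelled STBD1 WT and 15.79, 14.45 and 16.37 TPM in those labelled STBD1 W203C. The STBD1 WT libraries were all above those of plvx neo, by a margin as small as 14.83 against 14.64 TPM. The log2 fold change was 0.24 (SE 0.068, edgeR adjusted p = 0.0120), and the call was lost without plvx neo replicate 3 (0.21), without STBD1 WT replicate 3 (0.18) and on the TPM scale (0.22 and 0.24). For STBD1 W203C it was 0.14 (SE 0.070) against plvx neo and -0.09 (SE 0.071) against STBD1 WT, and neither passed.

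The promoters of GYS1 and GBE1 are shown because both rose together in STBD1 WT and because glycogen enzymes are among the genes known to respond to low oxygen. The sequences are the 250 bases before the RefSeq start (GRCh38.p14), 5′ to 3′ on the strand of the gene, with matches to ACGTG and GCGTG, the cores of the hypoxia response element, on either strand in capitals.
GYS1, chr19:48993310-48993559, minus strand: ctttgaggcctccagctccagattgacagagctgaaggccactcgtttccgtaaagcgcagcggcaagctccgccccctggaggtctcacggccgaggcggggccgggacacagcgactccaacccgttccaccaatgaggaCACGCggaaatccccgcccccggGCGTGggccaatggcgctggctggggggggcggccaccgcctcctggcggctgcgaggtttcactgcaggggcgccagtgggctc
GBE1, chr3:81761646-81761895, minus strand: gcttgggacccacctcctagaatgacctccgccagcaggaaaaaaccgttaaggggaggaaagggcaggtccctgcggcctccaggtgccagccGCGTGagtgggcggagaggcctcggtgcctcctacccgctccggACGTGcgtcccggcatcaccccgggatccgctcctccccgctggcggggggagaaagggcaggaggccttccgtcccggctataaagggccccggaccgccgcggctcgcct
These cores are short and common. ACGTG or its reverse complement was in 18.7% of 27305 promoters of this length, 1 for each gene, and GCGTG or its reverse complement in 31.9%. Among the 31 genes of the list with a RefSeq promoter, 12 held the first and 20 the second. Both are larger shares than over all promoters, a difference that was not tested. Genes with the second core included GYS1 and GBE1, and also PYGB, which fell in STBD1 WT vs plvx neo. A match describes the letters only, and a part of low oxygen in these differences was not tested.

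PGM1, which interconverts glucose 6-phosphate and glucose 1-phosphate, rose by a log2 fold change of 0.19 in STBD1 WT vs plvx neo and differed by -0.16 in STBD1 W203C vs STBD1 WT, with edgeR adjusted p of 0.0125 and 0.0207. The first call was lost without plvx neo replicate 3 (0.15), STBD1 WT replicate 1 (0.16) or STBD1 WT replicate 3 (0.17) and on the TPM scale (0.18). The second was lost without STBD1 WT replicate 1 (-0.13), STBD1 WT replicate 3 (-0.14) or STBD1 W203C replicate 1 (-0.13), in DESeq2 (-0.16), with GC and length offsets together with a replicate block (-0.14) and on the TPM scale (-0.13). PGM1 overlaps ITGB3BP on the other strand, and whether counting used the strand was not stated. PGM2, mainly a mutase of pentose phosphates, UGP2, and the glycogenin GYG1 passed in no comparison, with log2 fold changes between -0.09 and 0.13. PGM2 alone of them passed elsewhere, in STBD1 W203C vs STBD1 WT without STBD1 WT replicate 3 (0.18) and with GC and length offsets (0.13).

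PGM2L1, which makes the glucose 1,6-bisphosphate that mutases need, was low and variable. It measured 1.70, 1.98 and 1.75 TPM in plvx neo, 1.96, 2.03 and 2.23 TPM in the libraries labelled STBD1 WT and 2.44, 1.91 and 1.47 TPM in those labelled STBD1 W203C. The STBD1 W203C libraries ran from the lowest to the highest of all 9. On counts the log2 fold change was -0.31 (SE 0.095, edgeR adjusted p = 0.0197) in STBD1 W203C vs STBD1 WT, with CPM of 11.5 to 14.5 against 15.5 to 17.6. The call was lost without STBD1 W203C replicate 3 (-0.21) or STBD1 WT replicate 3 (-0.26), in DESeq2 (-0.30), with GC and length offsets (-0.22) and on the TPM scale (-0.08 and -0.12). Against plvx neo STBD1 WT gave 0.20 (SE 0.087, edgeR adjusted p = 0.0907), which passed without plvx neo replicate 2 (0.26). PGM1 and PGM2 held near equal parts of the summed TPM of PGM1, PGM2 and PGM2L1, which is a share of RNA and not of phosphoglucomutase activity. PGM1 had 46.6% ± 1.74 (SD, n = 3) in plvx neo, 51.7% ± 2.46 with STBD1 WT and 46.8% ± 3.71 in STBD1 W203C. The two-sided exact permutation p of this share was 0.1 for STBD1 WT vs plvx neo, 0.2 between the constructs and 1.0 for STBD1 W203C vs plvx neo.

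Of the 4 enzymes of breakdown, all tested, 1 was higher and 1 lower in STBD1 WT vs plvx neo, and between the constructs each turned its direction. Of all genes 27.8% and 27.9% passed in these comparisons. The brain phosphorylase PYGB (ENSG00000100994, chr20:25248085-25298012, plus strand) fell and the lysosomal GAA rose in STBD1 WT. PYGB measured 49.65, 52.22 and 52.57 TPM in plvx neo. It measured 40.90, 41.32 and 38.67 TPM in the libraries labelled STBD1 WT and 46.64, 46.85 and 48.87 TPM in those labelled STBD1 W203C. No group overlapped another, and STBD1 W203C lay between the other groups. The log2 fold change was -0.38 (SE 0.039) for STBD1 WT vs plvx neo and 0.22 (SE 0.041) for STBD1 W203C vs STBD1 WT. The edgeR F-test gave adjusted p of 4.86e-07 and 0.000318, and both calls held in every other fit and without any 1 library.

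For STBD1 W203C vs plvx neo the log2 fold change of PYGB was -0.16 (SE 0.039, edgeR adjusted p = 0.0140). That call was lost without plvx neo replicate 3 (-0.16), STBD1 W203C replicate 1 (-0.15) or STBD1 W203C replicate 2 (-0.14) and on the TPM scale (-0.12). PYGB overlaps ABHD12 on the other strand. The liver phosphorylase PYGL passed in no comparison, with log2 fold changes of 0.03, -0.09 and -0.07, and the muscle phosphorylase PYGM stood at 0.67 to 1.17 TPM with 29 to 38 expected counts, too few to show a small difference.

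PYGL held the larger part of the phosphorylase TPM in every library, 67.2% to 73.1%. PYGB had a share of 31.8% ± 0.555 (SD, n = 3) in plvx neo, of 26.9% ± 0.642 with STBD1 WT and of 30.6% ± 0.565 in STBD1 W203C. Each pair of groups gave a two-sided exact permutation p of 0.1, the smallest possible here. PYGM made up 0.416% to 0.702%.

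**Figure D4:**
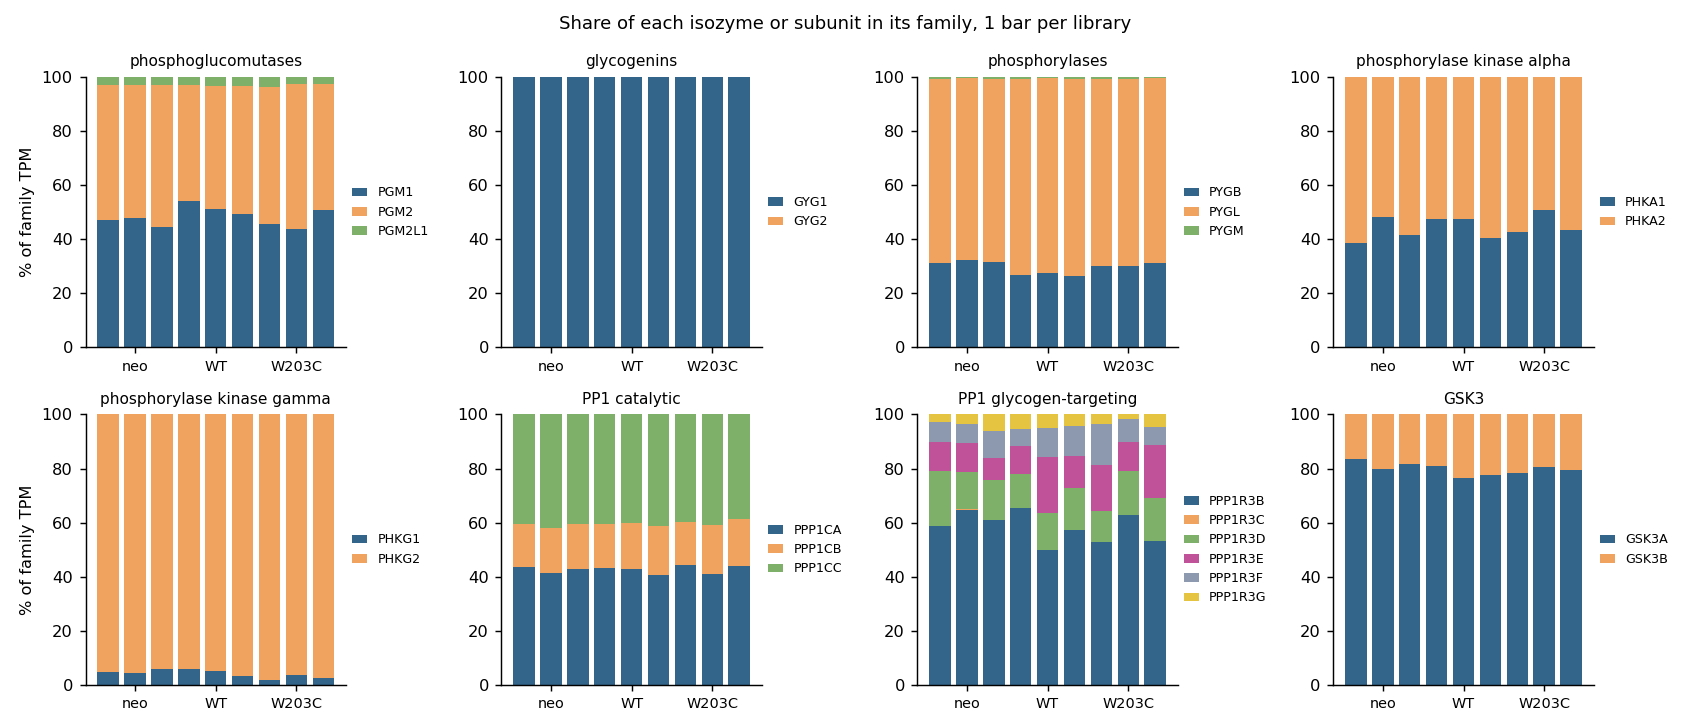
Stacked bars give the share of each gene in the summed TPM (%) of its family in each of the 9 libraries, 3 per label. GYG1 is the whole of the glycogenin bar in every library, and the PYGB part of the phosphorylase bars is shortest in the 3 libraries labelled STBD1 WT.

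GAA (ENSG00000171298, chr17:80101533-80119881, plus strand, overlapping no other gene) went the other way from PYGB in the libraries labelled STBD1 WT. It measured 50.39, 54.59 and 55.99 TPM in plvx neo. It measured 68.35, 63.59 and 68.61 TPM in the libraries labelled STBD1 WT and 60.80, 58.67 and 55.82 TPM in those labelled STBD1 W203C. The STBD1 WT libraries were above all others, and the STBD1 W203C libraries overlapped those of plvx neo. The log2 fold change was 0.29 (SE 0.039) for STBD1 WT vs plvx neo, -0.26 (SE 0.039) for STBD1 W203C vs STBD1 WT and 0.02 (SE 0.040) for STBD1 W203C vs plvx neo. The edgeR F-test gave adjusted p of 1.33e-05, 2.93e-05 and 0.852. Offsets for GC content and length reduced the first 2 values to 0.12 and -0.13, with edgeR adjusted p of 0.00721 and 0.00825. Limma on log2(TPM + 0.1) gave -0.19 and an adjusted p of 0.0507 between the constructs.

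The promoter of GAA is shown because GAA rose and because its promoter holds the E-box CACGTG within GTCACGTGAC, the palindrome known as the CLEAR element, which TFEB and related factors bind at lysosomal genes. It gives the 250 bases before the RefSeq start (GRCh38.p14), 5′ to 3′ on the plus strand, with the CLEAR letters in capitals.
GAA, chr17:80101331-80101580, plus strand: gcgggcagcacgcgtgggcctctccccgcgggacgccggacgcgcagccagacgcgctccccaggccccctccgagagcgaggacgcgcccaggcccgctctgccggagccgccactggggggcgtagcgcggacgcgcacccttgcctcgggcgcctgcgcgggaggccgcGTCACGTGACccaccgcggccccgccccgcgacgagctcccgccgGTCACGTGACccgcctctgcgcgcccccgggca
These 10 bases, the E-box with 2 bases on each side as read from this promoter, are the same on both strands. They stood 2 times in this window, at 33 to 24 and 78 to 69 bases before the RefSeq start. The GENCODE gene starts at chr17:80101533, inside this window, so the copy at 33 to 24 lies past that start. Since these 10 bases were read from GAA, its own match was set in advance. Only exact copies were counted, and they were in 90 of 27305 promoters (0.330%) and in no other of the 31. The E-box alone was in 6.49% of promoters and in 6 of the 31 listed genes with a promoter, GAA included. The share among the listed genes is the larger, a difference that was not tested. The letters say nothing of what was bound in these cells.

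Phosphorylase kinase is built of alpha, beta and gamma chains and calmodulin, and it phosphorylates and activates phosphorylase. Of its 7 genes, 1 was higher and 1 lower in STBD1 WT vs plvx neo, 1 was higher in STBD1 W203C vs STBD1 WT, and 0 passed in STBD1 W203C vs plvx neo. Of all genes 27.8%, 27.9% and 5.7% passed in this order, so the counts were near or under the background. The regulatory alpha chains PHKA1 and PHKA2 and the beta chain PHKB passed in no comparison, at 7.97 to 9.53, 8.83 to 12.64 and 14.86 to 19.17 TPM. The catalytic chain PHKG2 (ENSG00000156873, chr16:30748293-30761176, plus strand) measured 24.57, 22.67 and 22.81 TPM in plvx neo, 26.58, 27.52 and 25.97 TPM in the libraries labelled STBD1 WT and 28.18, 26.61 and 29.78 TPM in those labelled STBD1 W203C. All 6 construct libraries were above the 3 plvx neo libraries. The log2 fold change against plvx neo was 0.23 (SE 0.067, edgeR adjusted p = 0.0127) for STBD1 WT and 0.23 (SE 0.072, edgeR adjusted p = 0.0680) for STBD1 W203C, and only the first passed. Between the constructs it was -0.0018 (SE 0.069). The STBD1 WT call was lost without STBD1 WT replicate 2 (0.20) or plvx neo replicate 3 (0.20), in DESeq2 (0.23), with GC and length offsets (0.15) and on the TPM scale (0.19). The STBD1 W203C difference passed without STBD1 W203C replicate 2 (0.29) and with GC and length offsets (0.23). PHKG2 overlaps CFAP119 on the other strand.

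The muscle form PHKG1 had 18 to 39 expected counts and log2 fold changes of 0.24, -0.49 and -0.25 with SE of 0.291 to 0.322, so that small differences were not detectable at this depth. PHKG2 held 94.0% to 98.1% of the gamma chain TPM. CALM2 fell by 0.20 on the log2 scale in STBD1 WT vs plvx neo (SE 0.037, edgeR adjusted p = 0.000512), a call that held throughout, and was higher by 0.14 in STBD1 W203C vs STBD1 WT (SE 0.039, edgeR adjusted p = 0.00861), a call lost without STBD1 WT replicate 2 (0.11) and on the TPM scale (0.17). CALM3, which encodes the same protein, had log2 fold changes of 0.02, -0.01 and 0.01. CALM2 overlaps an unnamed coding gene on its own strand.

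**Figure D5:**
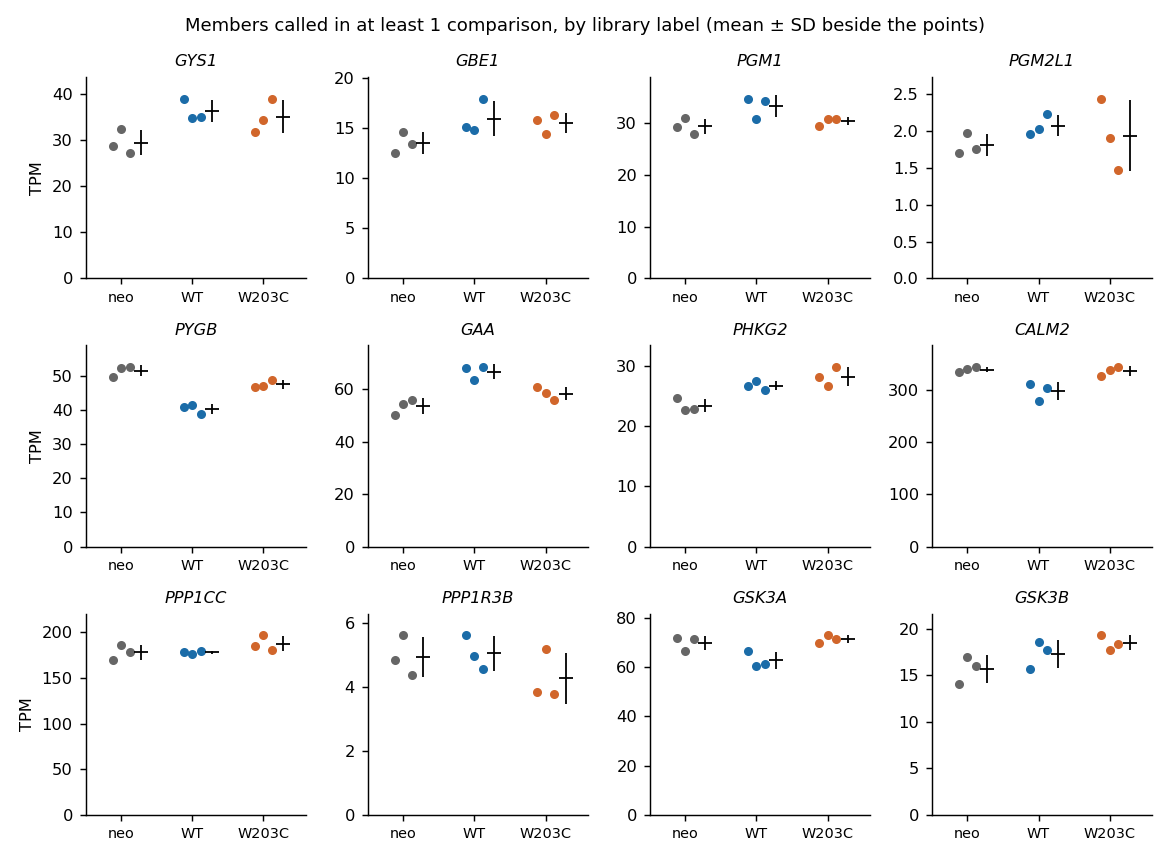
Points give TPM in each library for the 12 genes other than STBD1 that passed in at least 1 comparison, with the mean ± SD of the 3 libraries beside them and every axis starting at 0. PYGB is lowest and GAA highest in the 3 libraries labelled STBD1 WT, and the points of STBD1 WT and plvx neo overlap for PGM1, PGM2L1, PPP1CC, PPP1R3B, GSK3A and GSK3B.

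The PP1 catalytic subunits, which serve many pathways, changed little. PPP1CC fell by 0.11 on the log2 scale in STBD1 WT vs plvx neo (SE 0.037, edgeR adjusted p = 0.0264). The call was lost without plvx neo replicate 1 (-0.11), plvx neo replicate 2 (-0.10) or STBD1 WT replicate 1 (-0.09), and limma on TPM gave -0.0018. PPP1CA and PPP1CB passed in no comparison, with log2 fold changes of -0.01 to 0.09. With GC and length offsets PPP1CA instead fell in STBD1 WT vs plvx neo (-0.12, edgeR adjusted p = 0.00536) and was higher in STBD1 W203C vs STBD1 WT (0.19, edgeR adjusted p = 0.000251). PPP1CC also passed in STBD1 W203C vs STBD1 WT without STBD1 W203C replicate 3 (0.11) and in DESeq2 (0.10), where the fit of all 6 libraries gave 0.09.

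The glycogen-targeting subunits, which carry PP1 to glycogen and to glycogen synthase, were low. Of 5 tested 1 passed, PPP1R3B in STBD1 W203C vs STBD1 WT, where 27.9% of all genes did. PPP1R3B, the form first described in liver, held 49.7% to 65.6% of their summed TPM. It measured 4.85, 5.62 and 4.38 TPM in plvx neo, 5.62, 4.98 and 4.55 TPM in the libraries labelled STBD1 WT and 3.83, 5.20 and 3.79 TPM in those labelled STBD1 W203C. In TPM STBD1 W203C replicate 2 lay among the STBD1 WT libraries. On counts the log2 fold change was -0.34 (SE 0.090, edgeR adjusted p = 0.00668) in STBD1 W203C vs STBD1 WT, with CPM of 17.2 to 20.5 against 21.0 to 26.4. It was lost without STBD1 WT replicate 1 (-0.25) and on the TPM scale (-0.21 and -0.25). Against plvx neo it was -0.25 (SE 0.088, edgeR adjusted p = 0.0978), and it passed without STBD1 W203C replicate 2 (-0.34).

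PPP1R3D, PPP1R3E, PPP1R3F and PPP1R3G measured 0.15 to 2.08 TPM with 11 to 108 expected counts. None passed, and their SE of 0.199 to 0.349 left differences of the size seen in other members undetectable. The largest was PPP1R3G in STBD1 W203C vs STBD1 WT, at -0.84 (SE 0.330, edgeR adjusted p = 0.0636), which passed without STBD1 W203C replicate 3 (-1.15) and without the filter on low counts (-0.84). PPP1R3C, the targeting subunit known as PTG, had at most 1 expected count in a library.

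GSK3A and GSK3B, the kinases that phosphorylate glycogen synthase, passed in different comparisons. GSK3A was higher by 0.16 on the log2 scale in STBD1 W203C vs STBD1 WT (SE 0.042, edgeR adjusted p = 0.00628), lost with limma on log2(TPM + 0.1) (0.19, adjusted p = 0.0514) and 0.25 with GC and length offsets. In STBD1 WT vs plvx neo it was -0.11 (SE 0.044, edgeR adjusted p = 0.0611), and it passed without STBD1 WT replicate 1 (-0.15) or plvx neo replicate 2 (-0.14), with all 9 libraries in 1 fit (-0.12) and with GC and length offsets (-0.22). GSK3B rose by 0.19 in STBD1 WT vs plvx neo (SE 0.044, edgeR adjusted p = 0.00273), a call kept without any 1 library and lost on the TPM scale (0.14). GSK3A carried 76.4% to 83.6% of the summed TPM of both. It overlaps coding genes on both strands.

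Laforin, the glycogen phosphatase encoded by EPM2A, measured 2.15 to 3.91 TPM and passed in no comparison (log2 fold changes of 0.08, -0.06 and 0.01). Its partner malin, NHLRC1, was listed at 0, as was the second glycogenin GYG2. G6PC3, the glucose 6-phosphatase of most tissues, measured 47.8 to 56.8 TPM and passed in none, and FBP1 of gluconeogenesis had at most 2 expected counts.

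A further 30 genes that feed or control these enzymes were counted: other glycogen and glucose 6-phosphate genes, AMPK and PKA subunits, glucose transporters and hexokinases, and the ATG8 proteins that bind STBD1. Of the 23 tested in STBD1 WT vs plvx neo 3 were higher and 3 lower. In STBD1 W203C vs STBD1 WT 1 of 24 was higher and 5 lower, and in STBD1 W203C vs plvx neo 1 of 24 was higher and 2 lower. These shares were 26.1%, 25.0% and 12.5%, beside 27.8%, 27.9% and 5.7% of all genes. The last rests on 3 genes. Those with the largest differences were HKDC1, a hexokinase-like enzyme at 0.49 to 1.98 TPM (log2 fold change -1.36 in STBD1 WT and -1.17 in STBD1 W203C against plvx neo), and the glucose transporter SLC2A3 at 0.43 to 2.53 TPM (0.67 in STBD1 WT vs plvx neo, -1.25 in STBD1 W203C vs STBD1 WT). The main glucose transporter SLC2A1, at 173 to 266 TPM, had a log2 fold change of -0.39 in STBD1 W203C against each of the other groups. PRKACB, a catalytic subunit of PKA, was higher in STBD1 W203C by 0.31 against plvx neo and 0.22 against STBD1 WT. All values given for these 4 genes passed.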

How the data were processed

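Total RNA of the 9 cultures was made into NEBNext Ultra libraries and read in pairs on an Illumina instrument. Per the submitters' processing notes, the authors used STAR 2.7.1a, RSEM 1.3.1 and hg38. Each deposited gene table holds the expected count of a gene, in which reads that fit several transcripts are divided between them, and its TPM, scaled by the authors to effective length and to 1 M per library. Whether counting used the strand was not stated, and 17 of the 36 genes overlap another coding gene, so their levels are less certain. Symbols matched 57754 of 58395 identifiers (98.9%).

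Here expected counts were rounded to whole numbers after STBD1 and FAM47E-STBD1 had been summed. Each comparison was fitted on its own 6 libraries, with filterByExpr, TMM normalisation and the two-sided quasi-likelihood F-test of edgeR 4.0.16 in R 4.3.3, adjusted by Benjamini-Hochberg over all genes tested. A gene passed at an adjusted p below 0.05. TPM was used to set levels of different genes side by side, with exact permutation tests for the summed STBD1 level and the isozyme shares. Alternatives were DESeq2 1.42.0, limma 3.58.1 on log2(TPM + 1) or log2(TPM + 0.1), RLE size factors, no filter on low counts, all 9 libraries in 1 fit, offsets for GC content and length, the replicate number as a block, a 1.5-fold minimum, STBD1 as a row of its own, and leaving out each library. The fits were also run on simulated data, with the same spread for every gene and changes only in genes above a minimum count. That run does not bear on genes with few counts or on how the cultures are related.

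The members and the other lists were chosen with earlier results of these data known. Full values are given for the summed STBD1 row and for genes that passed with an absolute log2 fold change of at least 0.2, other members by ranges and counts, and of the 30 further pathway genes the 4 with the largest change among those that passed. Gene positions and the codon come from GENCODE on GRCh38 and promoter sequences from RefSeq on GRCh38.p14, 1 start per gene, the first in the table.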

Additional observations from a re-analysis of the deposited data

How the results depend on the processing

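The summed STBD1 row passed in all 3 comparisons under every alternative, except the 1.5-fold minimum between the constructs, and without any 1 library, where its log2 fold change ran from 2.64 to 2.72, -0.33 to -0.23 and 2.36 to 2.44. Comparisons are given in the order STBD1 WT with plvx neo (first), the constructs with each other (second) and STBD1 W203C with plvx neo (last). Of the other genes that passed, GYS1, PYGB, GAA and CALM2 in STBD1 WT vs plvx neo and PYGB in STBD1 W203C vs STBD1 WT did so under every alternative except that minimum and without any 1 library. For the counts of members that passed, STBD1 included, the main numbers were 7 higher and 3 lower, 3 higher and 6 lower, and 2 higher and 1 lower in this order. With limma on log2(TPM + 1) or log2(TPM + 0.1) they were 3 and 3 higher in the first, 2 and 1 higher and 2 and 1 lower in the second, and 1 and 1 higher and 0 and 0 lower in the last. With GC and length offsets 5 were lower in the first and 5 higher in the second, and with these offsets and the replicate block 5 were lower in the first and 3 lower in the second. DESeq2 gave 3 lower in the second. With the 1.5-fold minimum 1 was higher in the first and last, and 0 were lower in any or higher in the second. Without each library in turn the counts ran from 4 to 8 higher and 2 to 3 lower in the first, 2 to 4 and 3 to 6 in the second, and 1 to 3 and 0 to 1 in the last; the lowest counts came without plvx neo replicate 3 in the first (4), without STBD1 WT replicate 1 in the second (3), and in the last without STBD1 W203C replicate 1 or plvx neo replicate 3 (1 and 0), and STBD1 W203C replicate 3 or plvx neo replicate 2 (1). The causes were not tested.

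PPP1CA turned from 0.01 to -0.12 in STBD1 WT vs plvx neo with GC and length offsets, with or without the replicate block. With the replicate block alone the counts were 7 higher and 4 lower, 3 and 6, and 2 and 1, the summed STBD1 row gave 2.69, -0.28 and 2.41, and GSK3A passed in STBD1 WT vs plvx neo (-0.11). The block changed no other call. The replicate numbers were not treated as pairs, since deviations of same-numbered libraries from their group means correlated by only 0.0196, -0.0091 and 0.0088 on average across genes. Over all alternatives and left-out libraries, the 30 tested genes besides STBD1 kept their side of the threshold in 418 of 450 values in the first comparison. It was kept in 411 of 450 in the second and 431 of 445 in the last. Direction was compared only where the main fit or the alternative passed, so a sign that turned where neither passed counts as kept. EPM2A in the second comparison, for example, ran from -0.13 to 0.05 without each library in turn. Depth limits the genes with few expected counts, PYGM, PHKG1 and the PPP1R3 genes other than PPP1R3B.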
